A study of Mus musculus with 12 samples.

Results

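The measurement described here is the genotype difference in the transcriptional response to neocarzinostatin (NCS), a radiomimetic drug that makes DNA double-strand breaks. It was taken as the change after NCS in E2f1 3KR knock-in mouse embryonic fibroblasts (MEFs) minus the change after NCS in wild-type (WT) MEFs, on the log2 scale. All 12 RNA-seq samples entered it. Of 37991 gene IDs counted, 15327 passed a filter on low counts, and the 14248 of these on autosomes are the genes described. Their membership depends on chromosome and level and not on the size of the response.

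The 4 groups held 3 samples each. WT MEFs and MEFs homozygous for the 3KR allele, which replaces 3 lysines of E2F1 that can be acetylated with arginines, came from 13.5-day embryos on the FVB background. Both were primary cultures at passage 3 in 5% O2 and 5% CO2, and each genotype was either left untreated or given NCS at 250 ng/ml for 3 h. The mutation is in every cell of the embryo and of its culture, so a response measured after 3 h starts from cells that had carried it throughout development. The labels do not say whether samples of one group came from separate embryos or cultures, so p-values measure only the spread between these samples. In bulk RNA, fewer cells of a type and less RNA per cell cannot be told apart.

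E2F1 is a transcription factor that binds with a DP partner and is held in check by the retinoblastoma protein until cells enter S phase. Its classical targets encode replication factors, nucleotide enzymes and cyclins, and it is stabilized and modified after DNA damage. In damaged fibroblasts the kinases ATM and DNA-PK signal to p53, which induces Cdkn1a, whose product p21 inhibits cyclin-dependent kinases. The DREAM complex then holds down genes of G2 and mitosis, many of which carry a cell cycle homology region (CHR) and CCAAT boxes bound by NF-Y in their promoters. A single dose of a break-inducing drug also touches NF-kappaB, growth-factor and stress signalling, which act within minutes to hours.

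The samples were checked before the responses were compared. Counted reads ranged from 33203757 to 45279321 per sample, with a median of 37623686, and 3 counts corresponded to at most 0.0904 CPM. The normalized counts of E2f1 were 1043, 1100 and 1296 in untreated WT, 1174, 1262 and 1278 in NCS-treated WT, 1125, 1111 and 1129 in untreated 3KR and 1260, 1168 and 1244 in NCS-treated 3KR MEFs. A substitution of codons does not alter a gene count, so these values do not check the genotype labels, and the groups overlapped. The response of E2f1 was 0.11 in WT and 0.13 in 3KR MEFs on the log2 scale, and the difference was 0.02 ± 0.09 (SE, edgeR FDR = 0.951). Its sign turned without untreated WT replicate 3 (-0.08), NCS-treated WT replicate 1 (-0.02) or NCS-treated 3KR replicate 1 (-0.005), and with WT replicate 3 left out in both treatments (-0.06).

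Libraries differed in a pair of ways that bear on every value. Xist, transcribed from the inactive X chromosome of females, had 30603 to 35664 normalized counts in 3KR samples and 32.3 to 62.6 in WT samples, and Ddx3y of the Y chromosome had 5371 to 5828 in WT and 7.01 to 16.2 in 3KR samples. Sex and genotype therefore cannot be told apart, also for autosomal genes. WT replicate 3 stood apart in both treatments, with an SD of the log2 difference from its fellow replicates of 0.125 to 0.152, while all other pairs of replicates had 0.0833 to 0.0900. Counts of called genes in each list are given with and without this replicate.

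Below, the response is the log2 change after NCS within a genotype, and the difference is the 3KR response minus the WT response. A gene was called where the edgeR quasi-likelihood test gave a Benjamini-Hochberg adjusted p (FDR) of at most 0.05 over all genes tested. NCS raised 2108 genes (14.8%) and lowered 1829 (12.8%) in WT MEFs. In 3KR MEFs it raised 2296 (16.1%) and lowered 2209 (15.5%). The difference was called for 543 of 14248 genes (3.81%), above 0 for 267 (1.87%) and below 0 for 276 (1.94%), and 2344 genes had an unadjusted p under 0.05. Of the called genes 532 were protein coding. The median of the difference over all genes was 0.003, with a median SE of 0.092. The SE was 0.03 for Col3a1, at 12.96 log2 CPM, and 0.30 for Oasl2, at 1.67 log2 CPM. The share of a list that was called therefore also depends on the level of its genes, which was not matched. Called or not, the difference lay above 0 in 7218 of the 14248 genes.

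Called differences were mostly small. Their median size was 0.32 on the log2 scale, with quartiles of 0.24 and 0.44. In 448 of 543 genes the difference was under 0.5, and in 12 it exceeded 1. The count depended on single libraries. It was 1742 with WT replicate 3 left out in both treatments, and 534 of the 543 genes (98.3%) were among these. Leaving out only the untreated WT replicate 3 gave 1101 calls. The count was 347 without NCS-treated WT replicate 1, 340 and 330 without untreated 3KR replicates 1 and 3, and 331 and 356 without NCS-treated 3KR replicates 1 and 3. All 543 genes had the same sign in each of these fits.

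The called genes were sorted by the call in each genotype, as a description, since the same samples enter all 3 contrasts. Among the 267 genes with a difference above 0, 98 rose in 3KR and were not called in WT MEFs, 76 rose in both, 47 fell in both, 37 fell only by the call in WT, and 9 fell in WT and rose in 3KR. Among the 276 with a difference below 0, 123 fell in 3KR and were not called in WT, 60 rose in WT and were not called in 3KR, 43 rose in WT and fell in 3KR, 34 fell in both, 13 rose in both and 3 were called in neither. In the 47 genes that fell in both genotypes, the median response was -0.83 in WT and -0.50 in 3KR. In the 123 genes that fell in 3KR and were not called in WT, it was 0.03 and -0.33.

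**Figure D1:**
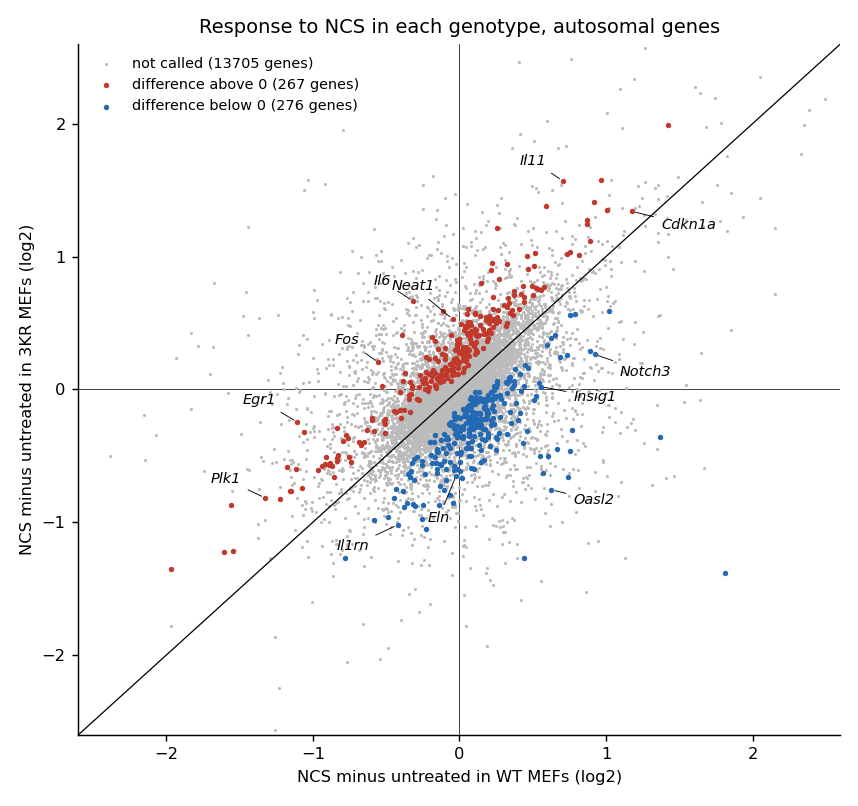
Response to NCS (log2, NCS minus untreated) in WT MEFs on the x axis and in 3KR MEFs on the y axis, one point per autosomal gene. Red points are the 267 genes with a called difference above 0, blue points the 276 below 0, the diagonal marks equal responses, and 9 genes lie outside the plotted range.

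Genes of G2 and mitosis formed the list with the most called members. The list holds cyclins, mitotic kinases, kinesins, kinetochore proteins and their regulators, and 57 of its genes were tested. NCS lowered 54 of them in WT and 50 in 3KR MEFs, and the difference was above 0 in all 57 and called in 32, against 1.87% of all genes. The median response was -0.75 in WT and -0.50 in 3KR, and the median difference 0.26, beside 0.003 over all genes. Apart from Psrc1, which rose, the called members fell less in 3KR than in WT MEFs or were not called in 3KR. The genotypes also differed at the start, with a median of 0.25 for 3KR minus WT untreated and 0.51 after NCS.

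Plk1, the polo-like kinase that drives mitotic entry, had 2122, 2034 and 2261 normalized counts in untreated WT and 885, 841 and 838 in NCS-treated WT MEFs. Untreated 3KR MEFs had 2507, 2472 and 2417, and NCS-treated ones 1445, 1368 and 1382. All 4 groups were separate, with the highest values in untreated 3KR and the lowest in treated WT MEFs. The response was -1.33 in WT and -0.82 in 3KR, a difference of 0.51 ± 0.07 (SE, edgeR FDR = 4.28e-05). Ube2c, the ubiquitin-conjugating enzyme of the anaphase-promoting complex, had 2186, 2208 and 2278 counts in untreated and 1648, 1744 and 1664 in treated WT samples. In 3KR samples it had 2412, 2305 and 2310 untreated and 2213, 2359 and 2352 with NCS. It fell by 0.40 in WT, while the 3KR values overlapped (response -0.02, FDR = 0.751), and the difference was 0.38 ± 0.06 (edgeR FDR = 0.000255).

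Psrc1, a microtubule-associated protein that is also a p53 target, was the list's exception in direction. Its counts rose from 2838, 2811 and 2968 to 3660, 3763 and 3776 in WT and from 2179, 2119 and 2051 to 3624, 3501 and 3486 in 3KR MEFs. The rise was 0.37 in WT and 0.74 in 3KR, a difference of 0.37 ± 0.05 (edgeR FDR = 0.000105). Other called members were chosen for mention after their values were seen. Troap, a spindle protein, had 539, 508 and 537 counts before and 265, 278 and 220 after NCS in WT, and 645, 656 and 606 before and 495, 464 and 565 after it in 3KR MEFs. Its response was -1.06 in WT and -0.32 in 3KR, and the difference of 0.74 was the largest of the 57. Aurka, which encodes the Aurora A kinase, fell by 1.11 in WT and by 0.60 in 3KR. Ccnb1, the cyclin that activates CDK1 at mitotic entry, fell by 0.91 and 0.51, and Top2a, the topoisomerase of chromosome segregation, by 0.34 and 0.17.

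The number of G2/M genes called was sensitive to single libraries of both genotypes. Among WT libraries, it was 24 without untreated replicate 1 or 2, and 35 without untreated replicate 3. Without NCS-treated WT replicates 1 and 2 it was 22 and 23. It was 19 without NCS-treated 3KR replicate 1 or 2, 20 without NCS-treated replicate 3 or without untreated 3KR replicate 2 or 3, and 21 without untreated 3KR replicate 1. With WT replicate 3 left out in both treatments it was 41, and the median difference 0.24. The mean over the list of log2 CPM, centred for each gene, was 0.160, 0.167 and 0.179 in untreated WT and -0.538, -0.539 and -0.585 in treated WT samples. In 3KR samples it was 0.421, 0.418 and 0.403 untreated and -0.0297, -0.0302 and -0.0272 with NCS. The 4 groups did not overlap on this mean, and the 3KR samples lay above the WT samples in both treatments.

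**Figure D2:**
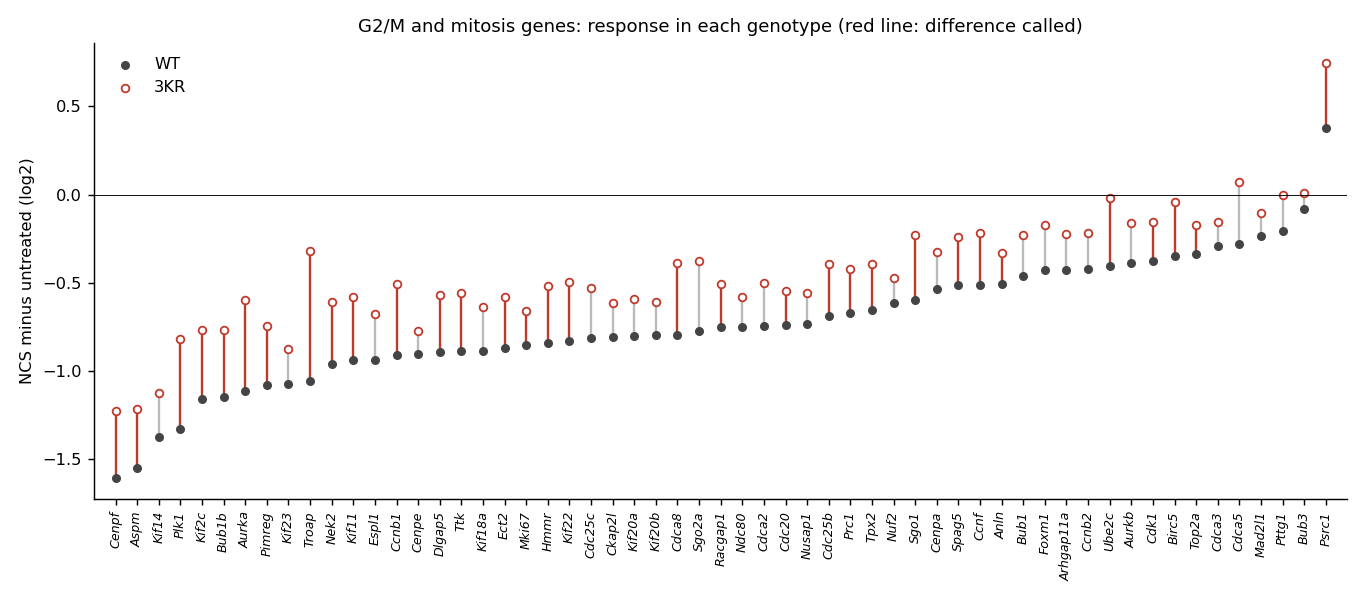
Response to NCS (log2, y axis) of the 57 G2/M and mitosis genes in WT (filled circles) and 3KR MEFs (open circles), ordered by the WT response, with a red line where the difference was called. The open circle lies above the filled one for all 57 genes, and Psrc1 at the right end rose in both genotypes.

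Promoter sequences are shown for this list because its members moved together. Windows from 250 bases before to 50 after the annotated start were taken from RefSeq (GRCm38.p6), and a window was found for 49 of the 57 genes. The CHR was searched as TTTGAA and the CCAAT box as CCAAT, both on either strand, and the letters of the motifs do not overlap. The CHR was in 34 of the 49 windows (69.4%), CCAAT in 38 (77.6%) and both in 29 (59.2%). Over the 10704 tested autosomal genes with a window these shares were 11.6%, 38.1% and 4.78%, and over all 27025 windows 18.1%, 37.9% and 7.12%. Windows were found for 75% of tested genes, which is under 80%, so the comparison with all genes is void. Among called members with a window, 22 of 29 (75.9%) held the CHR, and among members not called 60.0% did. A match is a description of letters and not of binding.

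The choice of sequences to print did not cover every called member. Among the called members it covered, 8 held both motifs within the 120 bases before the start. The 4 of these 8 with the lowest p are printed below, and called members left out could also hold both motifs. Capitals mark the CHR and the CCAAT box, which read TTCAAA and ATTGG where they lie on the other strand.

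Ube2c, chr2:164769809-164769928, plus strand: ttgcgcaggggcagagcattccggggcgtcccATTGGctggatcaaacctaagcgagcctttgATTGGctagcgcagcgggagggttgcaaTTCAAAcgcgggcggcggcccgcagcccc
Kif11, chr19:37376262-37376381, plus strand: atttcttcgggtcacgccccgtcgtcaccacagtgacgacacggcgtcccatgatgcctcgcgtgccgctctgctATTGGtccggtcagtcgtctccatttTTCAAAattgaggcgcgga
Kif22, chr7:127042421-127042540, minus strand: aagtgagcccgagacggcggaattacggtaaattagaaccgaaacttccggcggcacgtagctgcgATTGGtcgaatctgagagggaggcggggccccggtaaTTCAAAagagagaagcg
Ccnf, chr17:24251410-24251529, minus strand: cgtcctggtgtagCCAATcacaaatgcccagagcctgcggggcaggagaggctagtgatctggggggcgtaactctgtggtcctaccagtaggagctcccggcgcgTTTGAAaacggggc

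In these promoters the CHR began 29, 19, 17 and 14 bases before the start, in the order printed, with the CCAAT box farther upstream in each. Kif11, the kinesin that separates spindle poles, fell by 0.94 in WT and 0.58 in 3KR MEFs, a difference of 0.36 ± 0.06 (SE, edgeR FDR = 0.000582). Kif22, a chromosome-binding kinesin, fell by 0.83 and 0.50. Ccnf, the F-box protein cyclin F, fell by 0.51 and 0.22.

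The classical E2F targets of G1/S and replication had 2 called differences among 53 tested, where 3.81% of all genes were called. Both lay above 0 (3 above 0 without WT replicate 3). NCS raised 6 and lowered 5 in WT and raised 16 and lowered 5 in 3KR MEFs. The median response was -0.002 in WT and 0.10 in 3KR, and the median difference 0.07. Differences above 0 numbered 46 of 53, beside 7218 of 14248 over all genes. Untreated 3KR MEFs had higher levels, with a median of 0.27 against WT. Mcm2, a subunit of the replicative helicase, had a difference of 0.02 ± 0.06 (SE, edgeR FDR = 0.904). Brca1, which acts in recombination and is an E2F target, also had 0.02 (FDR = 0.937).

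Ccna2, the cyclin of S phase and G2, was called and lies in both programmes. It had 2629, 2771 and 2845 normalized counts in untreated and 1621, 1531 and 1482 in treated WT samples, and 3413, 3421 and 3281 and 2271, 2308 and 2363 in 3KR samples. It fell by 0.83 in WT and by 0.54 in 3KR, a difference of 0.29 ± 0.06 (SE, edgeR FDR = 0.0049). E2f7, an atypical E2F that represses E2F targets, had 622 to 750 counts in all WT samples, 737 to 782 in untreated 3KR and 838 to 1016 in treated 3KR samples. Its difference of 0.36 ± 0.10 was at the threshold (edgeR FDR = 0.0478) and was lost on leaving out any library except both WT replicates 3 and NCS-treated 3KR replicate 3, and with other scalings.

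Most targets of p53 in arrest and apoptosis rose in both genotypes. NCS raised 13 of 20 genes of the arrest and feedback list in WT and 14 in 3KR, 15 of 20 of the apoptosis list in each genotype, and 18 and 15 of 32 of the repair and metabolism list, and it lowered 1 to 3 of each. For the difference, the arrest and feedback list had 6 of 20 called above 0 (Ccng1, Btg2, Gtse1, Cdkn1a, Trp53inp1 and Zmat3), the apoptosis list 2 of 20 (Aen and Tnfrsf10b) and the repair and metabolism list 3 of 32 (Slc19a2, Cpt1c and Rps27l), beside 1.87% of all genes. None of the 3 lists had a member called below 0. The medians of the difference were 0.08, 0.05 and -0.01, beside 0.003 over all genes. Without WT replicate 3 the counts above and below 0 were 7 and 1, 3 and 2, and 4 and 3. The arrest count was 2 without untreated 3KR replicate 1 and 3 without untreated replicate 3 or NCS-treated replicate 1. The apoptosis count was 0 without untreated 3KR replicate 3 or NCS-treated 3KR replicate 1, and 1 without untreated WT replicate 1, NCS-treated WT replicate 1 or NCS-treated 3KR replicate 3. The repair count was 1 without untreated 3KR replicate 1 or NCS-treated 3KR replicate 2 or 3.

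Ccng1, a cyclin that recruits phosphatase to the p53 inhibitor MDM2, had 19378, 19743 and 18243 normalized counts in untreated and 39804, 38916 and 36936 in treated WT samples. In 3KR samples it had 11221, 11538 and 11292 untreated and 29304, 28912 and 28628 with NCS. Levels were lower in 3KR in both treatments, and the relative rise was larger there, 1.35 against 1.01, a difference of 0.34 ± 0.05 (SE, edgeR FDR = 5.73e-05). Cdkn1a showed the same order of groups, with 17103, 17084 and 18010 rising to 38992, 39957 and 39456 in WT and 9741, 9838 and 9886 rising to 24821, 24556 and 25169 in 3KR samples. Its log2 rise was 1.18 in WT and 1.34 in 3KR, a difference of 0.16 ± 0.04 (edgeR FDR = 0.0189). That call was lost without NCS-treated WT replicate 1, untreated 3KR replicate 1, or NCS-treated 3KR replicate 1 or 3. For both genes the larger log2 rise in 3KR MEFs went with a lower starting level, and the count itself remained below that of treated WT MEFs.

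Btg2, an antiproliferative co-regulator, rose by 0.51 in WT and 0.93 in 3KR (difference 0.42 ± 0.06, edgeR FDR = 0.000184). Slc19a2, a thiamine transporter, rose by 0.87 and 1.28 (difference 0.41 ± 0.06, edgeR FDR = 0.000283). Gtse1, which restrains p53 in G2, rose by 0.34 and 0.65, Aen, an apoptosis-enhancing nuclease, by 0.58 and 0.77, and Tnfrsf10b, a death receptor, by 0.89 and 1.12. Cpt1c, a carnitine palmitoyltransferase, rose by 0.44 and 0.69, and Rps27l, a ribosomal protein paralogue, had 0.14 in WT (FDR = 0.0898) and rose by 0.48 in 3KR. The calls of these last 5 differences depended on single libraries. Gtse1 lost it without untreated 3KR replicate 1 or 3 or NCS-treated 3KR replicate 2, and Aen without untreated WT replicate 1, untreated 3KR replicate 3 or NCS-treated 3KR replicate 1. Tnfrsf10b lost it without NCS-treated WT replicate 1, or 3KR replicate 1 or 3 of either treatment. Cpt1c lost it without NCS-treated WT replicate 1 or 2, untreated 3KR replicate 1 or NCS-treated 3KR replicate 2 or 3, and Rps27l without untreated WT replicate 1 or 2 or any 3KR library. Apaf1, the apoptosome scaffold and an E2F1 and p53 target, rose by 0.89 and 1.04 with a difference of 0.15 ± 0.05 that was not called (edgeR FDR = 0.148). Mdm2, the ubiquitin ligase of p53, rose by 0.84 and 0.96, also without a called difference (FDR = 0.216).

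Immediate early genes, whose transcription follows growth-factor and stress kinases within minutes, had 9 of 36 members called above 0, beside 1.87% of all genes, and none below. These were Egr1, Fos, Dusp1, Zfp36, Dusp6, Ier3, Junb, Nr4a2 and Ier2. NCS raised 17 and lowered 6 of the list in WT and raised 22 and lowered 3 in 3KR MEFs. The median response was 0.11 in WT and 0.25 in 3KR, and the median difference 0.10. Without WT replicate 3, 11 were called above 0 and 3 below, and the median difference was 0.02.

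Egr1, a zinc-finger transcription factor induced by ERK signalling, had the lowest p of all genes. Its normalized counts were 7673, 7809 and 8259 in untreated and 3864, 3736 and 3450 in treated WT samples, and 6131, 6142 and 6056 in untreated and 4969, 5225 and 5261 in treated 3KR samples. It was highest in untreated WT and lowest in treated WT MEFs, with both 3KR groups between them. It fell by 1.11 in WT and by 0.245 in 3KR, a difference of 0.86 ± 0.06 (SE, edgeR FDR = 4.38e-09). Fos, the AP-1 subunit, had 912, 880 and 990 counts in untreated and 676, 613 and 613 in treated WT samples, and 639, 656 and 597 and 734, 740 and 700 in 3KR samples. It fell by 0.55 in WT and rose by 0.20 in 3KR, where the treated samples lay above the untreated ones (difference 0.76 ± 0.09, edgeR FDR = 1.29e-05).

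The other called members rose in 3KR MEFs, except Ier2, which fell by 0.25 in WT and had 0.05 in 3KR. Dusp1, a phosphatase of MAP kinases, had 1932 to 2167 counts over the 6 WT samples, 1322 to 1446 in untreated 3KR and 1688 to 1763 in treated 3KR samples (difference 0.34 ± 0.07, edgeR FDR = 0.00453). Zfp36, which promotes decay of inflammatory mRNAs, had a response of 0.00 in WT and rose by 0.35 in 3KR. Junb, an AP-1 subunit, rose by 0.25 and 0.53, Ier3 by 0.33 and 0.69, and Nr4a2, an orphan nuclear receptor, had 0.11 in WT and rose by 0.56 in 3KR. Jun and Myc, of the same list, had differences of -0.001 and 0.01 and were not called.

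**Figure D3:**
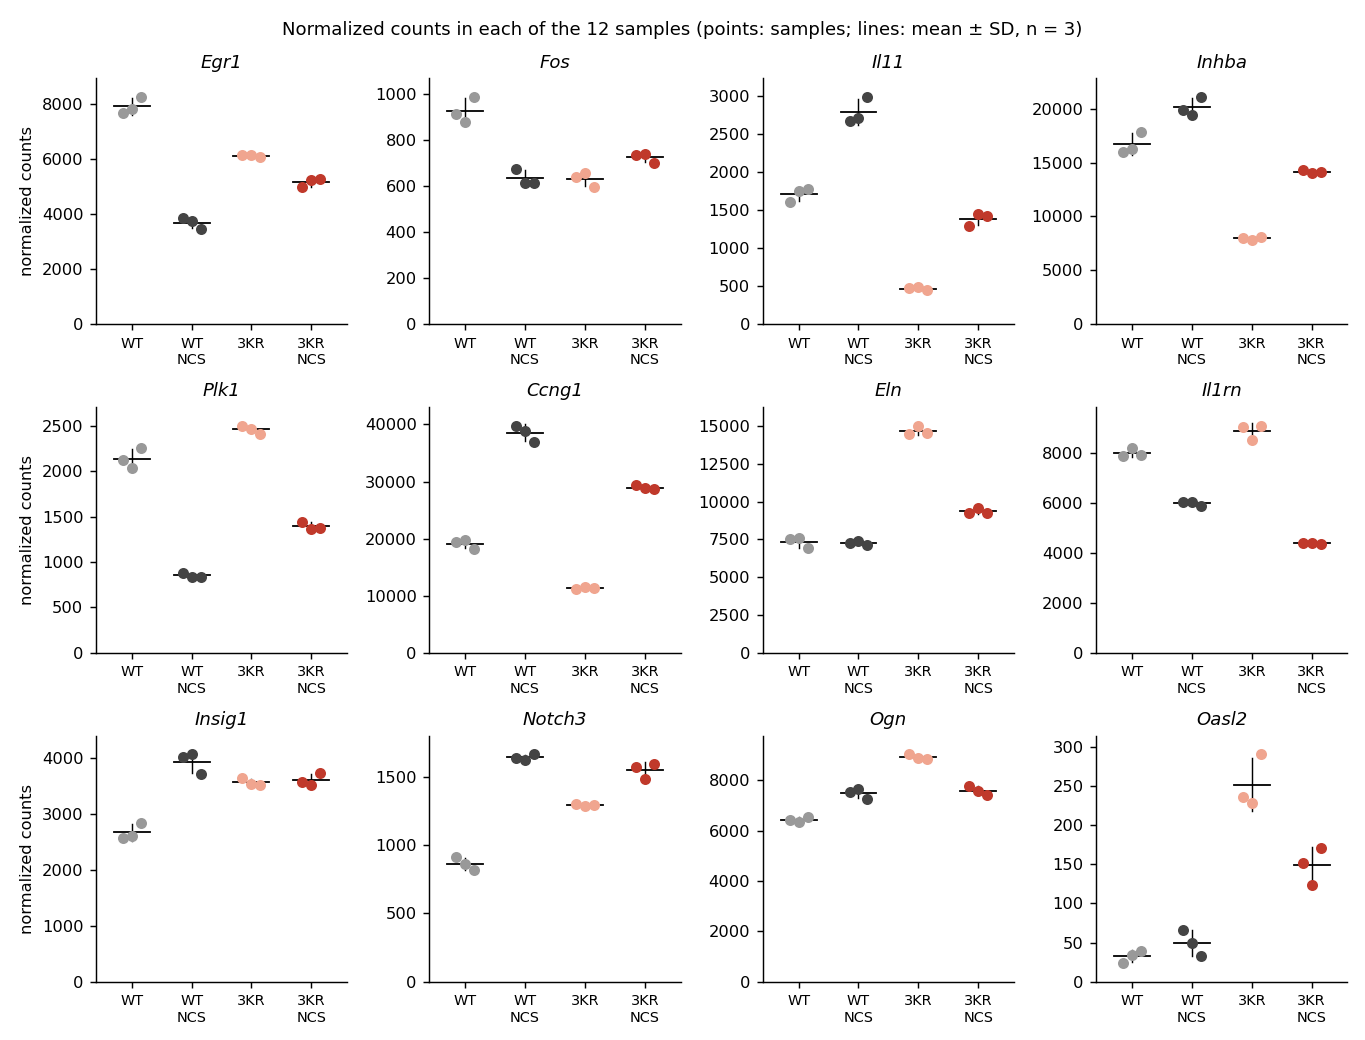
Normalized counts (y axis, from 0) of 12 genes in each sample of the 4 groups, with lines at the mean ± SD (n = 3). Egr1 fell more in WT than in 3KR, Fos fell in WT and rose in 3KR, Plk1 fell in both and less in 3KR, and Eln and Oasl2 fell in 3KR from higher untreated levels.

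NF-kappaB feedback and inflammatory genes were called in both directions, 5 of 29 above 0 (Il11, Nfkbiz, Ptgs2, Il6 and Bcl3) and 2 below (Il1rn and Vcam1), beside 1.87% and 1.94% of all genes. The count above 0 was 8 without NCS-treated WT replicate 3 and also 8 above and 2 below with WT replicate 3 left out in both treatments. The median difference was 0.08. Il11, a cytokine of the IL-6 family, had 1605, 1744 and 1780 counts in untreated and 2675, 2707 and 2992 in treated WT samples. In 3KR samples it had 470, 483 and 445 untreated and 1285, 1445 and 1416 with NCS, so that treated 3KR MEFs remained below untreated WT MEFs. It rose by 0.70 in WT and by 1.57 in 3KR (difference 0.87 ± 0.08, SE, edgeR FDR = 9.62e-07).

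Il6, the interleukin itself, was near the same level in all untreated samples (146 to 173 counts). It had 145, 105 and 107 in treated WT and 223, 277 and 254 in treated 3KR samples, and the treated 3KR samples were above all others. Its response was -0.32 in WT (FDR = 0.088) and 0.66 in 3KR, a difference of 0.98 ± 0.18 (edgeR FDR = 0.00211). Nfkbiz, a nuclear IkB protein that helps induce secondary NF-kappaB targets, rose by 0.32 and 0.95 (difference 0.62 ± 0.07, edgeR FDR = 1.29e-05). Ptgs2, the inducible cyclooxygenase, rose by 0.51 and 1.02. Il1rn, which encodes the antagonist of the IL-1 receptor, had 7906, 8216 and 7924 counts falling to 6043, 6063 and 5893 in WT and 9070, 8534 and 9118 falling to 4386, 4417 and 4365 in 3KR. It was higher in 3KR before NCS and lower after it, with responses of -0.42 and -1.02 (difference -0.60 ± 0.05, edgeR FDR = 4.81e-08). Vcam1, a leukocyte adhesion molecule, had -0.04 in WT and fell by 0.27 in 3KR.

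Targets of serum response factor, Yap and actin dynamics had 7 of 29 members called above 0, among them Ccn2, Zyx, Tpm1, Amotl2, Acta2 and Actb, and none below, beside 1.87% and 1.94% of all genes. NCS raised 3 and lowered 6 of the list in WT and raised 15 and lowered 3 in 3KR, and 24 of 29 differences lay above 0, with a median of 0.12. The count was 16 without WT replicate 3 in both treatments and 11 without the untreated one, and it was 3, 2 and 4 without untreated 3KR replicate 1, untreated 3KR replicate 3 and NCS-treated 3KR replicate 2. Ccn2, a matricellular Yap target, had 65442 to 71200 counts over all WT samples, 33709 to 34282 in untreated 3KR and 40765 to 41634 in treated 3KR samples. It rose by 0.29 in 3KR and had 0.01 in WT (difference 0.28 ± 0.04, SE, edgeR FDR = 0.00012). Zyx, zyxin of focal adhesions, had 0.06 in WT and rose by 0.30 in 3KR, and its called difference of 0.23 was lost without untreated 3KR replicate 3. The cytoskeletal actins Acta2 and Actb had small differences of 0.10 and 0.12.

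Collagen and matrix genes were called mostly below 0, 15 of 49 against 1.94% of all genes, with 2 above 0 (Col5a3 and Has2). In WT MEFs NCS raised 20 and lowered 5 of the list, and in 3KR MEFs it raised 13 and lowered 17. The median response was 0.07 in WT and -0.02 in 3KR, and the median difference -0.05. Without WT replicate 3 the counts were 28 below and 3 above 0. In untreated MEFs 30 of the 49 matrix genes were called higher in 3KR than in WT and 14 lower. The median of 3KR minus WT was 0.23 untreated and 0.13 after NCS.

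Eln, which encodes tropoelastin, had 7533, 7578 and 6903 counts in untreated and 7256, 7395 and 7100 in treated WT samples. In 3KR samples 14484, 15029 and 14553 counts fell to 9244, 9573 and 9273. The WT groups overlapped and the 3KR groups were apart from each other and from WT, with responses of -0.02 and -0.65 (difference -0.63 ± 0.05, SE, edgeR FDR = 4.95e-08). Ptx3, a pentraxin that organizes hyaluronan matrix, fell by 0.30 in WT and 0.88 in 3KR (difference -0.58 ± 0.06, edgeR FDR = 9.88e-07). Col12a1, a fibril-associated collagen, had 88887, 88009 and 97952 counts rising to 106470, 106597 and 100940 in WT, and 189311, 189635 and 190477 falling to 169953, 170914 and 168960 in 3KR. These changes had opposite signs, 0.19 and -0.16 (difference -0.35 ± 0.04, edgeR FDR = 2.56e-05).

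Smaller opposite changes were found in Col3a1 (0.08 in WT, -0.13 in 3KR), the fibrillar collagen, and Lum (0.19, -0.18), the proteoglycan lumican. Fbn1 and Fbn2, the fibrillins on which elastin is laid down, had differences of -0.29 and -0.32. The major chains Col1a1 and Col1a2 had differences of -0.04 and -0.07 and were not called. Col8a2, a network collagen outside the list, had 1274, 1249 and 1266 counts in untreated and 1165, 1093 and 1208 in treated WT samples, and 2908, 2875 and 2889 falling to 1733, 1795 and 1717 in 3KR samples. It fell by 0.13 in WT and 0.72 in 3KR (difference -0.59 ± 0.06, edgeR FDR = 1.71e-06).

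Genes of cholesterol synthesis and uptake, controlled by SREBP2, had 6 of 23 called below 0, among them Insig1, Stard4, Msmo1 and Fdft1, and none above, beside 1.94% and 1.87% of all genes. NCS raised 15 and lowered none in WT MEFs, and raised 5 and lowered 2 in 3KR MEFs. The median response was 0.18 in WT and 0.03 in 3KR, the median difference -0.15, and 1 of 23 differences lay above 0. The count was 13 without untreated WT replicate 3 and 16 with WT replicate 3 left out in both treatments. Insig1, which retains the SREBP escort protein in the endoplasmic reticulum, had 2569, 2600 and 2842 counts rising to 4018, 4066 and 3707 in WT. It had 3638, 3537 and 3517 untreated and 3577, 3526 and 3735 treated in 3KR samples, which overlapped. The response was 0.55 in WT and 0.02 in 3KR (difference -0.53 ± 0.06, SE, edgeR FDR = 1.01e-05). Stard4, a sterol carrier, rose by 0.24 in WT and fell by 0.16 in 3KR (difference -0.40 ± 0.07, edgeR FDR = 0.000568). Msmo1, a sterol demethylase, rose by 0.45 and 0.18.

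Interferon-stimulated genes had 5 of 47 called below 0, among them Oasl2, Bst2, Isg15 and Gbp2, and none above, beside 1.94% and 1.87% of all genes. NCS raised 6 and lowered 4 in WT and raised 2 and lowered 19 in 3KR, with median responses of 0.02 and -0.22 and a median difference of -0.16. These genes were much higher in 3KR MEFs before and after NCS, with medians of 1.25 and 1.07. The count was 13 with WT replicate 3 left out in both treatments, 8 without its treated sample, and 2 and 3 without NCS-treated WT replicates 1 and 2. Bst2, the tether of budding virions, rose by 0.22 in WT and had -0.14 in 3KR (difference -0.36 ± 0.08, SE, edgeR FDR = 0.012). Oasl2, an oligoadenylate synthetase-like gene, had 24.0, 33.5 and 39.3 counts in untreated and 65.7, 49.8 and 32.9 in treated WT samples, and 236, 228 and 290 and 151, 124 and 171 in 3KR samples. Its difference of -1.38 ± 0.30 (edgeR FDR = 0.009) rested on these low WT counts and was lost without NCS-treated WT replicate 1.

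Chemokines had 3 of 20 called below 0 (1.94% of all genes) and none above, and 4 below without WT replicate 3. Cxcl12, the ligand of CXCR4, had 3178, 3169 and 3102 counts in untreated and 2847, 3016 and 2772 in treated WT samples, and 4274, 4264 and 4234 falling to 2958, 2817 and 2889 in 3KR. The 3KR samples started higher and ended at the level of treated WT samples (difference -0.42 ± 0.05, SE, edgeR FDR = 1.94e-05). Cxcl15, a neutrophil chemokine with 18.6 to 44.8 counts in WT samples, fell from 254, 213 and 245 to 156, 147 and 157 in 3KR. Its difference of -1.20 ± 0.28 was lost without untreated WT replicate 1. Cx3cl1, or fractalkine, fell by 0.26 in 3KR and had -0.06 in WT, and its call (difference -0.19, edgeR FDR = 0.0212) was lost without untreated WT replicate 2, any untreated 3KR library, or NCS-treated 3KR replicate 2 or 3.

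In the TGF-beta, BMP and Notch list, 3 of 25 were called below 0 (Notch3, Bmp4 and Nog) and 1 above (Hes1), beside 1.94% and 1.87% of all genes. The counts were 7 and 1 without WT replicate 3, and 6 below without its untreated sample alone. Notch3, a Notch receptor, had 911, 859 and 819 counts rising to 1637, 1626 and 1665 in WT and 1299, 1288 and 1293 rising to 1571, 1484 and 1596 in 3KR. Treated WT samples lay just above treated 3KR samples, from a lower untreated level, and the rise was 0.92 in WT and 0.26 in 3KR (difference -0.66 ± 0.07, SE, edgeR FDR = 1.71e-06). Bmp4, a bone morphogenetic protein, fell by 0.19 in WT and by 0.55 in 3KR. Hes1, a repressor downstream of Notch, had 0.06 in WT and rose by 0.30 in 3KR, and its call was lost without NCS-treated replicate 1 of either genotype. Outside the list, Acvr2a and Inhba, a receptor and a subunit of activin, had differences of opposite sign. Acvr2a had -0.09 in WT and fell by 0.69 in 3KR (difference -0.59 ± 0.06, edgeR FDR = 1.71e-06). Inhba rose from 15985, 16237 and 17889 to 19889, 19448 and 21138 in WT and from 7981, 7819 and 8104 to 14288, 14013 and 14092 in 3KR (difference 0.56 ± 0.05, edgeR FDR = 9.62e-07).

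Growth-factor ligands and feedback regulators of receptor tyrosine kinases had 3 of 33 called below 0 (Igf1, Igf2 and Pdgfra) and 1 above (Spred3), beside 1.94% and 1.87% of all genes, and 5 and 2 without WT replicate 3. Igf1 had 2635 to 2895 counts over all 6 WT samples, where the treatments overlapped, and 2618, 2594 and 2551 falling to 1907, 1810 and 1844 in 3KR (difference -0.46 ± 0.06, SE, edgeR FDR = 2.14e-05). Igf2, the fetal growth factor, rose by 0.11 in WT and fell by 0.07 in 3KR (difference -0.18 ± 0.04, edgeR FDR = 0.00507). Igfbp3, which binds both ligands, had 3498 to 4376 counts in WT samples and fell from 8271, 8230 and 8271 to 5563, 5261 and 5544 in 3KR (difference -0.70 ± 0.07, edgeR FDR = 2e-06). Spred3, an inhibitor of Ras signalling, had -0.15 in WT and rose by 0.21 in 3KR, a call that was lost without NCS-treated WT replicate 1 or 2, untreated 3KR replicate 1 or 3, or NCS-treated 3KR replicate 2 or 3.

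Other called genes with a low p or a large difference belonged to none of these lists. Neat1, the long noncoding RNA of paraspeckles and a p53 target, had 12257 to 13429 counts over all WT samples and 13332, 13192 and 13332 in untreated 3KR samples. It rose to 19154, 18868 and 19394 in treated 3KR samples, the only group apart from the others, with responses of -0.04 and 0.53 (difference 0.57 ± 0.05, SE, edgeR FDR = 9.98e-08). Hmga2, an architectural chromatin protein, had 17041 to 19867 counts in WT samples and rose from 8833, 8759 and 8964 to 13680, 13111 and 13624 in 3KR (difference 0.55 ± 0.06, edgeR FDR = 3.73e-06). Tfrc, the transferrin receptor, rose by 0.57 in 3KR and had 0.05 in WT (difference 0.52 ± 0.05, edgeR FDR = 2e-06).

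Tbc1d2, a Rab GTPase-activating protein, rose by 0.59 in WT and 1.38 in 3KR (difference 0.79 ± 0.10, edgeR FDR = 3.83e-05). Ccn3, a matricellular protein, had 3397 to 3803 counts in WT samples, where the groups overlapped, and fell from 11669, 11743 and 11413 to 7737, 7802 and 7604 in 3KR (difference -0.67 ± 0.05, edgeR FDR = 4.81e-08). Cyp7b1, an oxysterol hydroxylase, had 102 to 156 counts in WT and fell from 491, 489 and 496 to 219, 242 and 252 in 3KR (difference -0.82 ± 0.17, edgeR FDR = 0.00587). Msln, which encodes mesothelin, fell from 89.6, 108 and 100 to 66.7, 81.2 and 78.7 in WT and rose from 128, 119 and 115 to 155, 168 and 157 in 3KR (difference 0.80 ± 0.19, edgeR FDR = 0.0165). Its call was lost without NCS-treated WT replicate 1.

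Changes in opposite directions, called in both genotypes, were found in 52 of the 543 genes, 43 of them raised in WT and lowered in 3KR. Their number was 189 with WT replicate 3 left out in both treatments, and 110 and 86 without its untreated or treated sample alone. It was 33 and 31 without NCS-treated WT replicates 1 and 2, 34 and 32 without untreated 3KR replicates 1 and 3, and 32 and 31 without NCS-treated 3KR replicates 1 and 2. Peg3, an imprinted zinc-finger gene, rose from 3660, 3715 and 3821 to 4367, 4448 and 4353 in WT and fell from 4763, 4744 and 4724 to 4152, 4082 and 3996 in 3KR (difference -0.45 ± 0.04, SE, edgeR FDR = 1.71e-06). Ogn, the small proteoglycan osteoglycin, rose from 6403, 6361 and 6551 to 7531, 7647 and 7264 in WT and fell from 9026, 8892 and 8824 to 7762, 7558 and 7413 in 3KR, so that the treated groups overlapped. Mest, an imprinted hydrolase of mesoderm, rose by 0.18 and fell by 0.38 (difference -0.55 ± 0.06, edgeR FDR = 1.13e-05). Itgbl1, an integrin beta-like protein, rose by 0.16 and fell by 0.37. Ahnak, a giant scaffold protein, rose by 0.16 and fell by 0.22. Hmcn1, the matrix protein hemicentin, rose by 0.43 and fell by 0.41 (difference -0.84 ± 0.13, edgeR FDR = 0.000365). Ankrd29 had the same pattern at low level, with 93.2 to 93.7 counts rising to 130 to 146 in WT and 137 to 159 falling to 89.2 to 123 in 3KR (difference -1.05 ± 0.19, edgeR FDR = 0.0017).

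In the unfolded protein and integrated stress list 5 of 26 were called above 0 (Chac1, Herpud1, Shmt2, Phgdh and Hsp90b1) and Ddit4 below, beside 1.87% and 1.94% of all genes, and 12 and 2 without WT replicate 3. The count above 0 was 8 without the untreated WT replicate 3 alone and 3 on leaving out untreated WT replicate 1, NCS-treated WT replicate 1 or 2, untreated 3KR replicate 1 or 3, or NCS-treated 3KR replicate 1 or 2. Chac1, a glutathione-degrading enzyme induced by ATF4, fell from 2145, 2103 and 2196 to 1172, 1260 and 1378 in WT and from 2581, 2571 and 2538 to 1984, 1923 and 2057 in 3KR (difference 0.40 ± 0.07, SE, edgeR FDR = 0.000694). Herpud1, of endoplasmic reticulum-associated degradation, fell by 0.41 and 0.15 (difference 0.25 ± 0.05, edgeR FDR = 0.00286). Shmt2, of mitochondrial one-carbon metabolism, had -0.09 in WT and rose by 0.14 in 3KR.

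The Nrf2 and antioxidant list had 1 of 23 called each way, and 5 above and 3 below without WT replicate 3. For this list and the heat shock and clock lists, the shares of all genes were 1.87% above 0 and 1.94% below. Txnrd1, thioredoxin reductase, rose from 26240, 26123 and 27513 to 37778, 38148 and 39152 in WT and from 23925, 24125 and 24440 to 41571, 40547 and 40575 in 3KR (difference 0.24 ± 0.04, SE, edgeR FDR = 0.000407). Hmox1, heme oxygenase, went the other way, with 9001, 9155 and 9692 rising to 16187, 16135 and 15913 in WT and 8605, 8721 and 8504 rising to 12726, 13067 and 12479 in 3KR (difference -0.22 ± 0.05, edgeR FDR = 0.00563). In the heat shock list 1 of 21 was called, Hspd1, a mitochondrial chaperonin (difference 0.21 ± 0.05, edgeR FDR = 0.0101), and 4 without WT replicate 3. In the clock list Nfil3, a bZIP repressor, was called above 0 (0.02 in WT and 0.28 in 3KR) and Bhlhe41 and Tef below, of 20 tested (2 above and 3 below 0 without WT replicate 3). Bhlhe41, a clock repressor, lost its call without untreated WT replicate 1, untreated 3KR replicate 1 or NCS-treated 3KR replicate 3. Tef, a bZIP activator, lost it without replicate 1 or 2 of either WT treatment, any untreated 3KR library, or NCS-treated 3KR replicate 1 or 3.

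Genes of double-strand break repair and checkpoints had 1 of 50 called, below 0 (1.94% of all genes were called below 0). NCS lowered 17 and raised none in WT and lowered 15 and raised 1 in 3KR, and the median difference was 0.05. Without WT replicate 3 the counts were 1 above and 2 below 0. Prkdc, the catalytic subunit of DNA-PK, had 361, 455 and 481 counts untreated and 436, 410 and 356 treated in WT samples, which overlapped. In 3KR it fell from 603, 615 and 599 to 328, 385 and 361, overlapping treated WT samples (difference -0.65 ± 0.13, SE, edgeR FDR = 0.00556). Of 24 E2F1 chromatin partners, which include the acetyltransferases and the BRG1 complex, 1 was called, below 0. This was Smarca2, the ATPase BRM, with 0.08 in WT and a fall of 0.21 in 3KR (edgeR FDR = 0.0279), and its call was lost without NCS-treated WT replicate 1 or 2, untreated 3KR replicate 2 or 3, or any NCS-treated 3KR library. The list had 1 above and 5 below 0 without WT replicate 3.

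**Figure D4:**
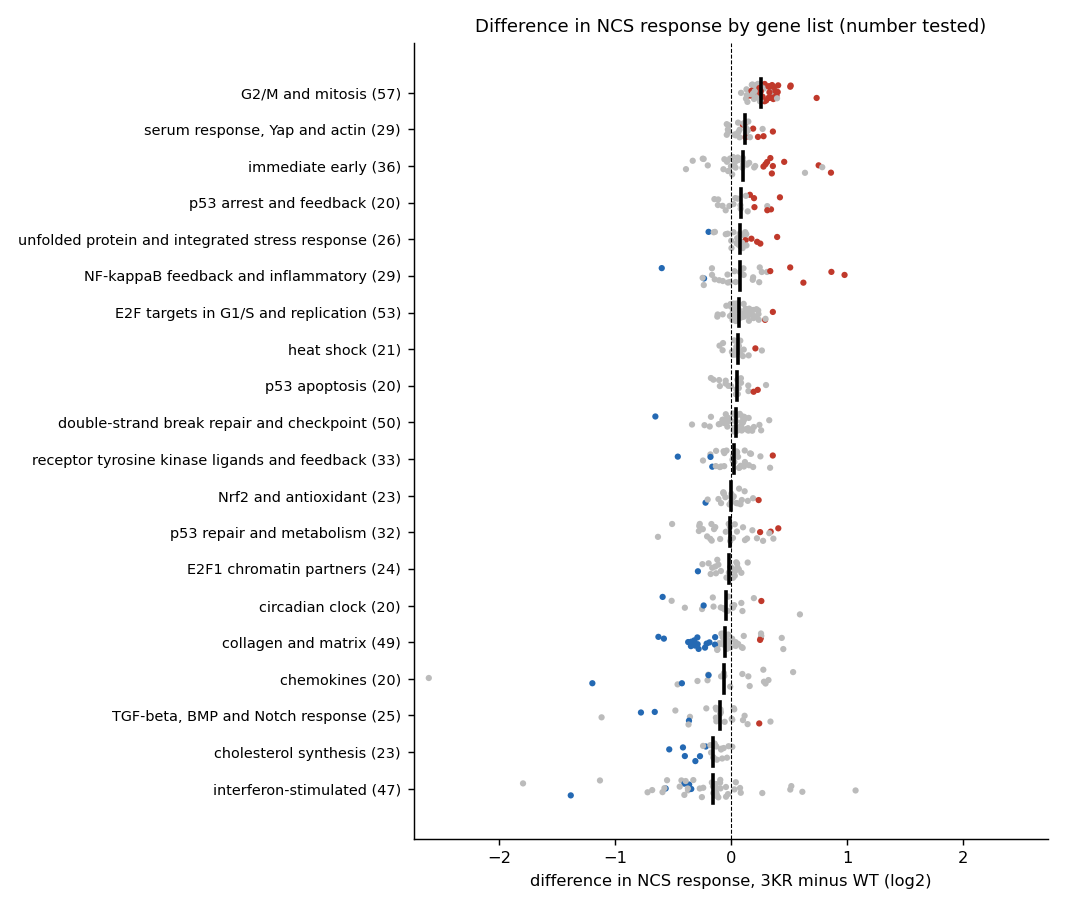
Difference in the NCS response (log2, 3KR minus WT, x axis) of each tested gene of the 20 lists of functions, ordered by the list median (black bar), with red and blue points for genes called above and below 0 and grey points for genes not called. The G2/M list lies wholly to the right of 0, and the cholesterol list almost wholly to the left.

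Gene length was examined over the whole set, in classes chosen after the data were seen and described without a test. Of 3104 protein-coding genes spanning under 10 kb, 1.39% were called below 0, and the share was 1.36%, 1.85%, 4.20% and 6.68% in genes of 10 to 30, 30 to 100, 100 to 200 and over 200 kb. The share called above 0 lay between 1.67% and 2.33% in the 5 classes. That evenness depended on WT replicate 3, since without it in both treatments the shares above 0 were 7.20%, 7.47%, 5.58%, 4.44% and 4.15%, and without its untreated sample they went from 5.14% in the shortest to 1.81% in the longest class. The median difference went from 0.01 in the shortest class to -0.07 in the 763 genes over 200 kb. Genes called below 0 had a median span of 57.6 kb and those above 0 of 22.9 kb, beside 24.99 kb for all protein-coding genes tested. With WT replicate 3 left out in both treatments the shares below 0 were 4.44%, 4.73%, 5.96%, 13.1% and 16.1%, and over 200 kb the share went from 4.27% to 14% on leaving out single libraries. The genes over 200 kb had a median level of 3.74 log2 CPM, below the 3.95 to 4.98 of the other classes. Lengths are spans on GRCm38 and not of transcripts.

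**Figure D5:**
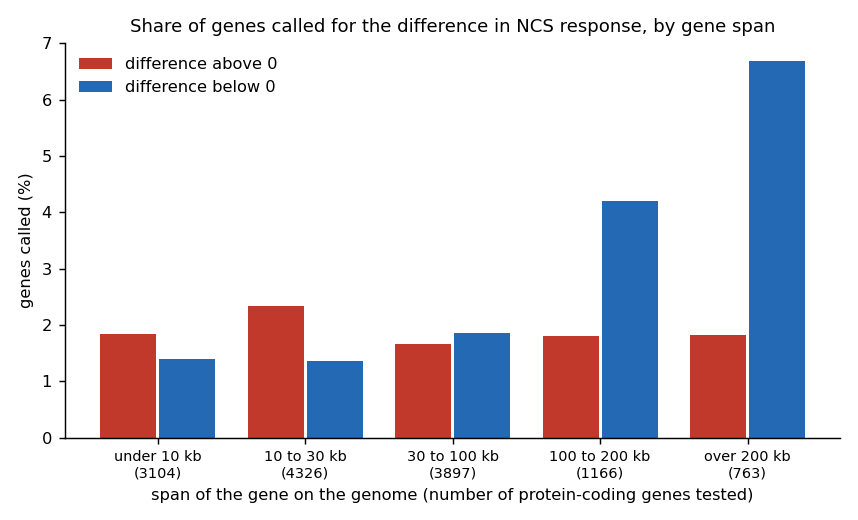
Share of protein-coding genes (%, y axis, from 0) with a called difference above 0 (red) and below 0 (blue) in 5 classes of genomic span (x axis, number of genes in brackets). The share below 0 is 1.39% under 10 kb and 6.68% over 200 kb, and the share above 0 stays between 1.67% and 2.33%.

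Markers of cell types that the cultures could hold were compared between the groups. Fibroblast markers were high in all samples, with summed normalized counts of 1708620 to 1833390 in WT and 2120940 to 2210290 in 3KR samples, and none was at or under 3 counts throughout. Of 14 fibroblast markers 5 were called below 0 (7, and 3 above 0, without WT replicate 3), among them Col3a1, Lum and Postn. Of all genes, 1.94% were called below 0 and 1.87% above, which also stands beside the marker counts that follow. Macrophage markers summed to 5721 to 6647 in untreated and 6277 to 7065 in treated WT samples and to 11196 to 11237 and 10317 to 10522 in 3KR samples. Of 19, 1 was called (4 without WT replicate 3), Mrc1, the mannose receptor, with a rise of 0.23 in WT and a fall of 0.26 in 3KR. The Schwann cell list summed to 64226 to 67785 in WT and 172541 to 192270 in 3KR samples, of which Postn, shared with fibroblasts, made up 95.2%. In untreated MEFs 7 of the 12 genes tested were lower in 3KR than in WT and 1, Postn, higher, with a median of -1.34 on the log2 scale, and the difference in response was called for Postn alone (2 genes without WT replicate 3). Of the Schwann cell list, Pou3f1 was at or under 3 counts in every sample. Of 10 skeletal muscle markers 1 was called, Acta1 (difference 0.38 ± 0.10, SE, edgeR FDR = 0.03), a call lost without NCS-treated WT replicate 1 or 2, untreated 3KR replicate 1 or 2, or NCS-treated 3KR replicate 1 or 3, and Myf5, Ckm and Chrng were at or under 3 counts. No endothelial, epithelial or neuronal marker was called of 9, 4 and 8 tested, and without WT replicate 3 the counts were 1 below 0, none and 1 below 0. The endothelial markers Tie1 and Cldn5, the epithelial Krt5, Esrp1 and Grhl2 and the neuronal Rbfox3 were at or under 3 counts in every sample. In untreated MEFs 6 of the skeletal muscle markers were lower in 3KR than in WT and none higher. Of the neuronal ones 5 were lower and 1 higher, of the endothelial ones 3 and 1, and of the epithelial ones 2 and 2. The endothelial list summed to 4125 to 4324 in untreated WT and 7099 to 7329 in untreated 3KR samples, and Flt1 made up 90.5% of it. The part of a cell mixture in the differences above was not tested.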

How the data were processed

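RNA-seq was performed on 12 MEF samples with a stranded mRNA library kit. The authors deposited raw counts per Ensembl gene, 1 file per sample, neither normalized nor filtered. The submitters' processing notes name TopHat, HTSeq, DESeq and the build mm9, without versions. Whether counting used the strand is not given in the sources used here, so the counts of overlapping genes may be mixed. The sample labels gave the groups.

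IDs were matched to GENCODE M21 (GRCm38) for symbols, chromosomes and spans, with 32938 of 37991 found, which held at least 99.398% of counts. The 4 groups were fitted with edgeR 4.0.16 in R 4.3.3 (filterByExpr, TMM, quasi-likelihood F test, two-sided), with Benjamini-Hochberg adjustment over 15327 genes and a threshold of 0.05. SE is the log2 value divided by the root of F. Normalized counts are counts divided by DESeq2 1.42.0 size factors. For centred list means, log2 CPM had 2 added as prior count. The fits were tested on simulated data, with counts drawn independently around group means. In these the 3KR response was set to the WT response, except in genes given a seeded difference. The seeded differences were larger than most of the called ones, so the detection of smaller differences was not tested. Those data hold no replicate that stands apart, so they do not test the effect of WT replicate 3.

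Named genes have a mean log2 CPM of at least 1 and are the 12 lowest p in each direction, the 5 largest and smallest called differences, the 6 lowest p among opposite changes, up to 3 called genes per list, and E2f1, Cdkn1a and Apaf1. Some genes that meet this rule are not reported here. Other list members were chosen after their values were seen. The 27 lists and the members were chosen with earlier results of these data known, so no list is tested. Promoters are from RefSeq (GRCm38.p6). Alternatives were other scalings, filters, DESeq2, a replicate block and single libraries left out.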

Additional observations from a re-analysis of the deposited data

Results flagged for a closer look

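The response to NCS differed between the genotypes, by the test of the interaction (edgeR FDR at most 0.05), in 543 autosomal genes, 267 with a difference above 0 and 276 below 0. In 52 of them the response was called in both genotypes with opposite signs. The 6 of these with the lowest p are Peg3 (difference -0.45 on the log2 scale), Ogn (-0.45), Mest (-0.55), Itgbl1 (-0.53) and Ahnak (-0.38), which rose in WT and fell in 3KR MEFs, and Fos (0.76), which fell in WT and rose in 3KR MEFs.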

How the results depend on the processing

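The count of called differences (543, 267 above and 276 below 0) was 536 with DESeq2 size factors, 563 with library totals, 548 on autosomal genes alone, 630 by the DESeq2 Wald test and 750 without a filter. With at least 10 counts in every sample it was 645, split 391 above and 254 below 0, and the median of all genes was then 0.02. A replicate block gave 1312 (712 and 600). The deviations of same-numbered samples correlated at 0.263, 0.227 and 0.465 in WT and at 0.013, 0.036 and 0.013 in 3KR, and no label says that a number marks 1 culture. WT replicates 1 and 2 correlated nearly as well with each other's number across treatments, at 0.221 and 0.236. Pairing was taken as shown only where every pair exceeded 0.1, so the fit without the block was kept. Every sample correlated best with its own number except untreated WT replicate 2. Leaving out WT replicate 3 in both treatments gave 1742 (879 and 863), and adding the block to that, an alternative chosen after seeing the data, 1848 (937 and 911). Leaving out 1 library gave 330 to 1101 calls (147 to 515 above and 176 to 586 below 0). NCS calls in WT numbered 3937 (3168 to 5040 over the alternatives). The cause of these shifts was not tested. Called genes tested in an alternative had the same sign in it.

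Of 79 named genes, 58 had the same direction and call in 21 alternatives. The difference of E2f1 turned to -0.0588 without WT replicate 3 and -0.0558 with the block added, and ranged from -0.0796 to 0.0834 with 1 library left out (interaction of E2f1). The difference of Apaf1 was called only with the block (edgeR FDR = 0.0403). Calls were lost in at least 1 alternative for 19, among them E2f7 with other scalings and Rps27l by DESeq2. List medians were compared only for DESeq2 size factors, library totals, the block and WT replicate 3 left out in both treatments. Of 108 medians compared there, 100 moved by less than the spread between replicates and 8 moved, all without WT replicate 3. Medians also moved in alternatives not compared this way. With at least 10 counts in every sample the E2F target median went from 0.071 to 0.090, beside a spread of 0.013. The chemokine median ranged from -0.145 to 0.041 with 1 library left out.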

Other observations

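Imprinted genes and the insulin-like growth factor (IGF) pathway were listed after their members had been seen among the called genes, so their counts are a description with no test. Of 24 imprinted genes tested, 6 were called below 0 and 1 above, beside 1.94% and 1.87% of all genes, with a median difference of -0.13 on the log2 scale, beside 0.003 over all genes. The count below 0 was 10 without WT replicate 3 and 5 to 9 with 1 library left out, and 9 was the value without untreated WT replicate 3. Those below 0 were Peg3, Mest, Igf2, H19 (-0.23), Dlk1 (-0.18) and Cdkn1c (-0.54), which encode growth regulators and a noncoding RNA, and the one above was the noncoding RNA Meg3 (0.24). Of 16 genes of the IGF pathway, 7 were called below 0, with a median of -0.13 (11 without WT replicate 3, 11 without its untreated sample alone, and 6 to 8 without any other library). These were both ligands, the adaptor Irs1 (-0.37), the binding proteins Igfbp2 (-0.27), Igfbp3 (-0.70) and Igfbp4 (-0.25), and Pappa2 (-0.33), a protease that cleaves binding proteins. Grb14, an adaptor that inhibits insulin receptors, was called above 0 (0.68). Igf2 is in both lists, as are Igf2r and Grb10, which were not called.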
